A study of Mus musculus with 4 samples.

Results

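Glutathione transferases join the tripeptide glutathione to reactive and electrophilic compounds, which lets the cell export them. The mu and pi classes are soluble dimeric enzymes of the cytosol, whereas the microsomal enzymes belong to a separate membrane protein family, MAPEG, whose members also reduce lipid hydroperoxides or make leukotriene C4. Gstp1 is abundant in many epithelial tumors, mu-class enzymes are abundant in liver, and many genes of this kind are known targets of NRF2, the transcription factor of the electrophile response that KEAP1 marks for degradation. The genes described here are Gstm1, Gstm2, Gstm4, Gstm5, Gstm6 and Gstm7 (mu), Gstp1 (pi) and Mgst1, Mgst2 and Mgst3 (microsomal). They were chosen by symbol, and all 10 were found among the 22063 genes of the deposited table.

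The study sequenced polyadenylated RNA of ID8, a mouse ovarian cancer line, and asked how loss of the deubiquitinase USP9X changes its transcriptome. The control group, shCtrl, comprised 2 libraries from cells with a control shRNA and the genotype labelled WT, and the shUSP9X group comprised 2 libraries labelled as a USP9X knockdown, named shUSP9X-21 and shUSP9X-22. Per the study's methods, ID8 cells were grown in DMEM with fetal bovine serum and knockdowns were made with lentiviral shRNA in pLKO.1-puro. Which shRNA sequence the libraries carried, and whether TGF-β1 or low oxygen was applied, is not given in the sources used here. Nothing states that the libraries of a group came from separate cultures, so p-values measure the spread between these libraries, which may be technical. The libraries held 17232006 and 15611363 estimated counts for shCtrl replicates 1 and 2, and 19978889 and 17021261 for shUSP9X replicates 1 and 2.

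Usp9x (chrX:13071498-13173328, GRCm38, + strand) had 5169 and 4453 counts in the shCtrl libraries and 390 and 346 in the shUSP9X libraries. Its level was 298 and 282 CPM, counts relative to the library total with TMM scaling for library composition, against 19.7 and 20.5 CPM. The groups were far apart, with a log2 fold change of -3.85 (SE 0.06, adjusted p = 4.7e-26). With an offset that removes each library's trend on GC content and transcript length, it was -2.19 (adjusted p = 1.3e-17). Genes were tested with edgeR's quasi-likelihood test, p-values were adjusted by Benjamini-Hochberg over the 11448 genes tested, and log2 fold changes are differences of shUSP9X from shCtrl.

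The line was checked against markers of mesothelium and surface epithelium, the tissue it derives from. Of 10 such markers, Krt19, Krt18, Krt8, Msln, Wt1, Upk3b and Upk1b were abundant in every library, with Krt19 at 703 and 711 CPM in shCtrl and 786 and 751 CPM in shUSP9X. Wt1 fell from 358 and 373 to 256 and 252 CPM (-0.52, adjusted p = 4.0e-12) and Msln from 473 and 492 to 352 and 346 CPM (-0.47, adjusted p = 1.3e-11). Krt8 (0.92), Krt18 (0.64) and Upk1b (0.68) rose. Lrrn4 had 23 and 17 counts against 9 and 5, and passed the filter on low counts through the shCtrl libraries alone. Krt7 had at most 3 counts and Epcam at most 6 in any library. Of the 8 tested, 4 were higher in shUSP9X, 3 were lower and 1 was not called. Of all genes tested, 33.8% were higher and 33.6% lower. With the offset for GC content and length, 3 were higher and 5 lower, and Krt19 went from 0.12 to -0.15 on the log2 scale. The summed level of the list was 2563, 2595, 3017 and 2967 CPM in library order (shCtrl replicates 1 and 2, then shUSP9X replicates 1 and 2).

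One library stood apart. Alb, the serum albumin of hepatocytes, had 635 counts in shUSP9X replicate 2 and 0 in the other 3 libraries. Transthyretin (Ttr) had 29 and Cyp2e1 10 counts in that library and 0 elsewhere, and Apoa1 had 47 counts there against 3, 0 and 3. The 4 hepatocyte markers summed to 42.8 CPM in shUSP9X replicate 2 and to 0.173, 0 and 0.152 CPM in the others. The fold changes of those genes described here that were tested are therefore given below with and without this library. So are the counts of genes called in the lists of other transferases, glutathione synthesis, conjugate export and NRF2.

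Leukocyte markers separated the groups in both replicates. Of 10 such markers 4 passed the filter on low counts, and they did so through the shUSP9X libraries alone, so that their difference was fixed by the filter and only their counts are given. Itgam, an integrin of myeloid cells and the most abundant of them, had 0 and 0 counts in the shCtrl libraries and 72 and 75 in the shUSP9X libraries. Adgre1, which encodes the macrophage antigen F4/80, had 0 and 0 against 58 and 59. Ptprc, the common leukocyte antigen CD45, had 0 and 0 against 29 and 18, and Csf1r, the receptor of macrophage colony-stimulating factor, had 0 and 0 against 17 and 13. Cd3e and C1qa were at 0 in all 4 libraries, and Lyz2 and S100a8 had at most 2 counts. The list summed to 0.0577 and 0.0632 CPM in shCtrl and to 9.11 and 10.1 CPM in shUSP9X.

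Fibroblast markers moved the other way. Of 5 markers, Pdgfra (-2.87), Col1a1 (-1.72) and Dcn (-0.46) were lower by these log2 fold changes, and Pdgfrb and Lum were at 0. With the offset for GC content and length, Dcn was higher (0.75, adjusted p = 5.4e-12) and Pdgfra (-2.58) and Col1a1 (-1.72) were lower. The list summed to 252 and 259 CPM in shCtrl and 148 and 144 CPM in shUSP9X, with Dcn the most abundant. Of 4 endothelial markers, Tek was lower (-0.80), Pecam1 was not called (0.04, adjusted p = 0.952), and Cdh5 and Kdr were at 0. This list summed to 10.4 and 11.6 CPM in shCtrl and 6.48 and 7 CPM in shUSP9X. The part of these marker transcripts in the transferase results was not tested. In bulk RNA, fewer cells of a type and less RNA per cell cannot be told apart.

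**Figure D1:**
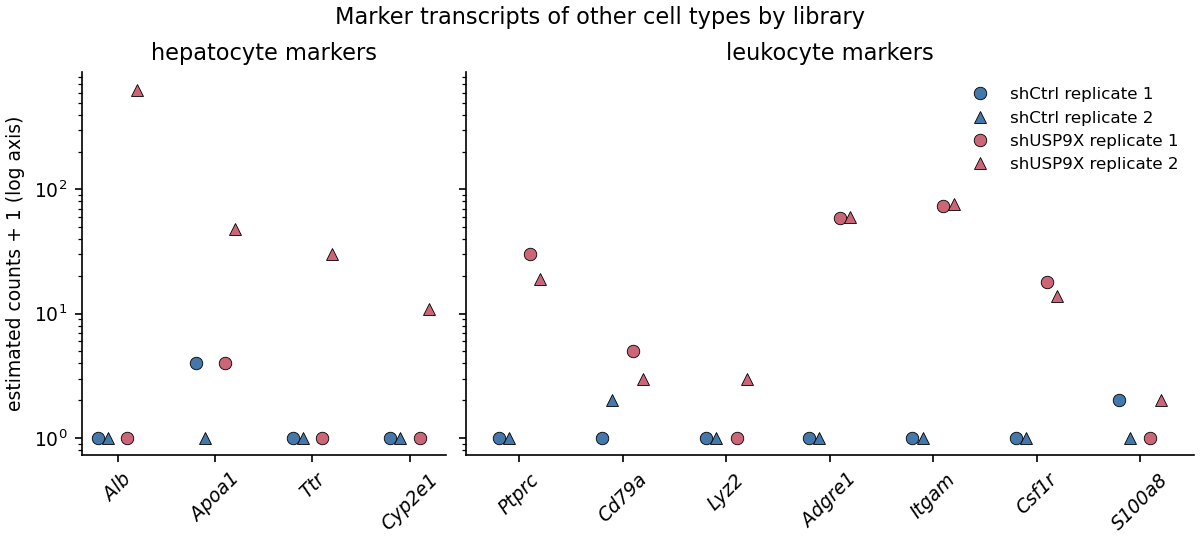
Estimated counts plus 1 (log axis) of the hepatocyte and leukocyte markers with a count in any library, in each of the 4 libraries. The hepatocyte markers are raised in shUSP9X replicate 2, with Alb at 635 counts, and Itgam, Adgre1, Ptprc and Csf1r are at 0 in shCtrl and present in both shUSP9X libraries.

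Gstp1, Gstm1, Gstm2 and Mgst3 rose in shUSP9X, the first 3 to more than double their control level, and none of the 10 was called lower. With the offset for GC content and length, the rises of Gstp1, Gstm1 and Gstm2 were less than a doubling. Their log2 fold changes were then 0.82, 0.94 and 0.85. Gstm4, Gstm5 and Mgst1 were tested and not called, and Gstm6, Gstm7 and Mgst2 had too few counts to be tested. Both shUSP9X libraries lay below both controls for Gstm5 and Mgst1, and above them for Gstm4. The 4 genes called higher stand beside a background in which 33.8% of the 11448 genes tested were higher and 33.6% lower at the same adjusted p under 0.05. The study's cutoff is a fold change above 1.5 and a p-value under 0.05. With this cutoff on edgeR's unadjusted p-values, the counts among the members were also 4 higher and 0 lower. Of all genes tested, 10.8% were then higher and 18.7% lower. The median log2 fold change of the 7 members tested was 0.65, and that of all genes tested was 0.00.

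**Figure D2:**
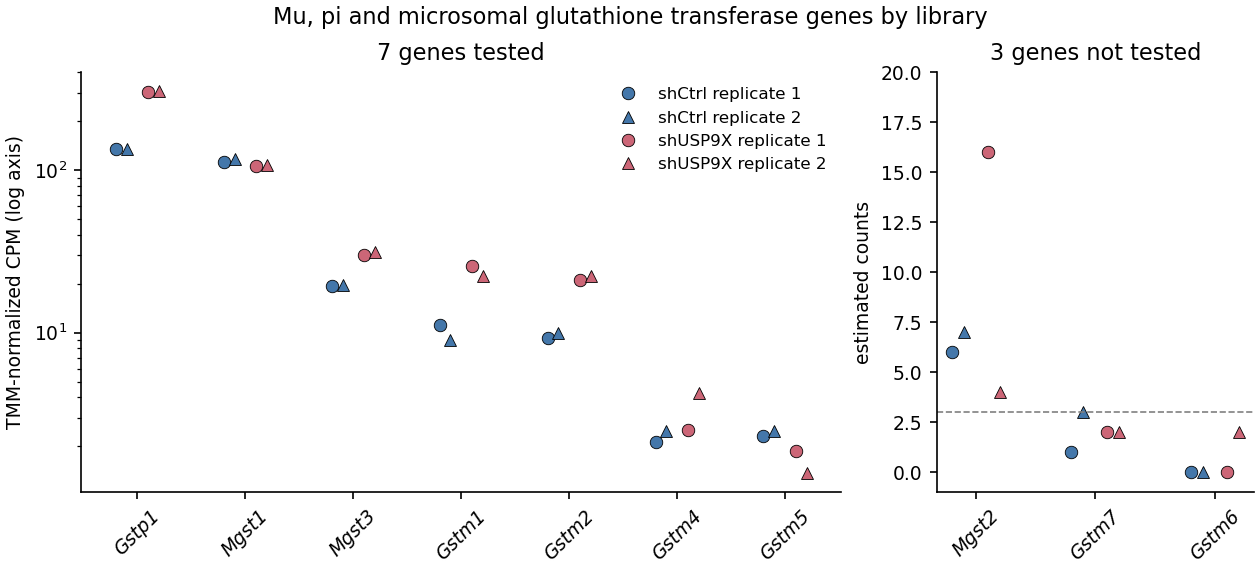
Level of each gene in each library, on the left as TMM-normalized CPM (log axis) for the 7 genes tested and on the right as estimated counts for the 3 that were not, with a dashed line at the floor of 3 counts. Gstp1, Mgst3, Gstm1 and Gstm2 are higher in both shUSP9X libraries than in both shCtrl libraries, and Mgst1 lies between 106 and 117 CPM in all 4.

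Gstp1 (chr19:4035407-4037985, GRCm38, - strand) is the pi-class enzyme. Its promoter window is printed because it holds the letters TGAGTCA, in capitals, an element that the AP-1 and Maf factor families can bind. The window (chr19:4037863-4038162, - strand, RefSeq annotation of GRCm38.p6) runs from 250 bases before the transcription start to the 50 bases from the start on.
Gstp1: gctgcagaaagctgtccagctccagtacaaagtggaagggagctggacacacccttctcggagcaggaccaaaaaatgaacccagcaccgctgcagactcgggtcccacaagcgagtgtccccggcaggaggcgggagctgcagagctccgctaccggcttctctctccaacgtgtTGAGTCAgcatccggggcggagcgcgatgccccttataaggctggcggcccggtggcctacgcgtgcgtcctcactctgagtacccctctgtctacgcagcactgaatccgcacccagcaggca
The element begins at base -74 of Gstp1, counted from the transcription start. The neighbouring copy Gstp2 holds it at base -89, within a run of 30 bases that is identical in both promoters, 30 of 30.
Gstp1 from base -85: ctccaacgtgtTGAGTCAgcatccggggcg
Gstp2 from base -100: ctccaacgtgtTGAGTCAgcatccggggcg
On either strand, TGAGTCA occurred in 5.2% of 32851 promoter windows of this length. A match is a description of the sequence and says nothing of what binds there.

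Gstp1 had 2352.72 and 2154.83 estimated counts in the shCtrl libraries and 6027.51 and 5156.84 in the shUSP9X libraries. Scaled, these were 136 and 136 CPM against 305 and 306 CPM. The replicates nearly coincided and the groups did not overlap. The level rose 2.25-fold, from 136 ± 0.424 to 306 ± 0.791 CPM (SD, n = 2 each), a log2 fold change of 1.17 (SE 0.04, adjusted p = 8.5e-19). Without shUSP9X replicate 2 it was again 1.17 (adjusted p = 6.1e-70), with the lone library assumed to vary like the controls.

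Reads of Gstp1 can be shared with its copies. The Gstp1 and Gstp2 coding sequences matched at 621 of 633 positions (98.1%), and those of Gstp1 and Gstp3 at 71.6%. Of all 100-base stretches in annotated Gstp1 transcripts, 25.1% also occurred in transcripts of other genes, Gstp2 and the pseudogene Gstp-ps, and the estimated counts of Gstp1 and Gstp2 were not whole numbers. Gstp2 was listed at 2.28 and 3.17 counts in the shCtrl libraries and 19.49 and 17.16 in the shUSP9X libraries, and Gstp3 at 0 and 0 against 4 and 0. How many of the Gstp2 counts came from Gstp1 was not tested. The sum over Gstp1, Gstp2 and Gstp3, which does not depend on that division, was 2355 and 2158 counts against 6051 and 5174, with a log2 fold change of 1.17 (SE 0.04, adjusted p = 7.6e-19), and 1.18 without shUSP9X replicate 2.

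The mu-class genes form 1 cluster of tandem copies on chromosome 3, spanning 149.1 kb (chr3:107895821-108044894, GRCm38). Every member lies on the - strand except Gstm5, which lies on the + strand. Over a coding sequence of 657 bases, pairs of mu genes matched at 79.1% to 89.5% of positions, without gaps, with Gstm1 and Gstm2 matching at 86%. The longest annotated coding sequence of Gstm5 has 675 bases and was not compared this way. The first 90 coding bases (GENCODE M21) are printed to show how far apart the copies are, with bases that differ from Gstm1 in capitals.
Gstm1: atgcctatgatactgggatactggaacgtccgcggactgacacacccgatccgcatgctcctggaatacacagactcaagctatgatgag
Gstm2: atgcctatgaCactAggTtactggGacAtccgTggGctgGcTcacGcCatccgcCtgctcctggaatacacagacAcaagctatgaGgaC
Gstm4: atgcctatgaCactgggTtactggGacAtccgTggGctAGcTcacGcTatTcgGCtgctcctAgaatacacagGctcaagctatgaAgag
Gstm6: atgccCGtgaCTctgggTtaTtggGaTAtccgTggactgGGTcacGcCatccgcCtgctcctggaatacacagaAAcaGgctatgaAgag
Gstm7: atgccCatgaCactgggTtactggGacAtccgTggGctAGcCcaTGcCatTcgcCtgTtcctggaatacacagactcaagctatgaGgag
Gstm2 differed from Gstm1 at 15 of these 90 bases, Gstm4 and Gstm7 at 17 each and Gstm6 at 20. The mu gene Gstm3, which is not printed, differed from Gstm1 at 11 of them. Of 100-base stretches, 5.86% in Gstm1 and 0.357% in Gstm2 occurred in other genes' transcripts, and none in Gstm4 or Gstm7. The share was 5.58% in Gstm5, 1.1% in Gstm6 and 13.8% in Gstm3. At 50 bases it was 18.9% in Gstm1, 5.65% in Gstm2 and 0% in Gstm4. At 150 bases no stretch of Gstm1 or Gstm2 was shared. The 100-base stretches of Gstm1 were shared most with Gstm2-ps1 (2.61%), Gm8834 (2.48%) and Gstm3 (1.27%). Counts of the mu genes were whole numbers, unlike those of Gstp1 and Gstp2. The read length is not given in the sources used here.

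Gstm1 (chr3:108012255-108017973), a major mu enzyme of mouse liver, had 195 and 142 counts in the shCtrl libraries and 507 and 376 in the shUSP9X libraries. These were 11.2 and 8.98 CPM against 25.6 and 22.3 CPM, with both shUSP9X libraries above both controls. The level rose 2.37-fold, from 10.1 ± 1.6 to 24 ± 2.36 CPM (SD, n = 2 each), a log2 fold change of 1.24 (SE 0.13, adjusted p = 2.0e-09). Without shUSP9X replicate 2, the library with liver transcripts, it was 1.35 (adjusted p = 1.8e-18).

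Gstm2 (chr3:107981702-107986453), the neighbouring copy, had 162 and 157 counts in the shCtrl libraries and 418 and 375 in the shUSP9X libraries. Its levels of 9.34 and 9.93 CPM against 21.1 and 22.3 CPM were also apart. The rise was 2.25-fold, a log2 fold change of 1.17 (SE 0.12, adjusted p = 2.7e-09), and 1.14 without shUSP9X replicate 2 (adjusted p = 3.1e-12).

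Gstm4 (chr3:108040408-108044894) had 37 and 39 counts in the shCtrl libraries and 50 and 72 in the shUSP9X libraries. Its levels were 2.13 and 2.47 CPM against 2.53 and 4.27 CPM, so the groups were apart by little and shUSP9X replicate 2 was the highest. The difference did not pass the test (0.55, SE 0.30, adjusted p = 0.113). It fell to 0.15 without shUSP9X replicate 2 (adjusted p = 0.786) and passed at 0.90 without shUSP9X replicate 1 (adjusted p = 0.0315).

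Gstm5 (chr3:107895821-107898686) had 40 and 39 counts in the shCtrl libraries and 37 and 23 in the shUSP9X libraries, or 2.31 and 2.47 CPM against 1.87 and 1.37 CPM. Both shUSP9X libraries lay below both controls, but the difference of -0.55 (SE 0.33, adjusted p = 0.149) did not pass the test. It was -0.34 without shUSP9X replicate 2 (adjusted p = 0.542) and -0.80 without shUSP9X replicate 1 (adjusted p = 0.176). With the offset for GC content and length it passed, at -0.83 (adjusted p = 0.0301). Exons of 4933431E20Rik, which is on the opposite strand and has no row in the table, overlap those of Gstm5, and the strand setting of the counting is not given in the sources used here. The values of Gstm5 are uncertain for that reason.

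The last members of the cluster were at or near the floor of 3 counts. Gstm6 (chr3:107938847-107943749) had 2 counts in shUSP9X replicate 2 and 0 elsewhere. Gstm7 (chr3:107926334-107931817) had 1 and 3 counts against 2 and 2. Gstm3, a further mu gene of the cluster, had 1 count in shUSP9X replicate 2 and 0 elsewhere.

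Summed over all 7 Gstm rows, which leave out Gstm2-ps1 and Gm8834, mu-class counts were 435 and 380 in shCtrl and 1014 and 851 in shUSP9X. This sum, which does not depend on how reads were divided within the class, rose by a log2 fold change of 1.05 (SE 0.08, adjusted p = 7.9e-12), and by 1.07 without shUSP9X replicate 2. Gstm1 and Gstm2 held most of it. Gstm1 made up 44.8% and 37.4% of mu counts in the shCtrl libraries and 50% and 44.2% in the shUSP9X libraries, with overlapping groups. The share of Gstm5 was 9.2% and 10.3% in shCtrl and 3.65% and 2.7% in shUSP9X, with the groups apart.

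Of the microsomal genes, only Mgst3 was called higher. Mgst3 (chr1:167371966-167393841, - strand), a MAPEG enzyme with glutathione peroxidase activity, had 339 and 311 counts in the shCtrl libraries and 595 and 528 in the shUSP9X libraries. Its levels of 19.5 and 19.7 CPM against 30.1 and 31.3 CPM did not overlap. The rise was 1.57-fold, from 19.6 ± 0.0846 to 30.7 ± 0.874 CPM (SD, n = 2 each), a log2 fold change of 0.65 (SE 0.10, adjusted p = 1.4e-06), and 0.63 without shUSP9X replicate 2 (adjusted p = 3.5e-06).

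Mgst1 (chr6:138140316-138156755, + strand), the trimeric enzyme of the endoplasmic reticulum and outer mitochondrial membrane, had 1951 and 1844 counts in the shCtrl libraries and 2090 and 1815 in the shUSP9X libraries. Its levels were 113 and 117 CPM against 106 and 108 CPM, with both shUSP9X libraries slightly below both controls. The log2 fold change of -0.10 did not pass the test (adjusted p = 0.0713), and its 95% interval ran from -0.20 to -0.01. It passed with scaling by library size only (-0.13, adjusted p = 0.0229) and without shCtrl replicate 1 (-0.12, adjusted p = 0.0465), and did not pass without shUSP9X replicate 2 (-0.11, adjusted p = 0.222).

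Mgst2 (chr3:51660360-51682677, + strand), which can make leukotriene C4, was barely present. It had 6 and 7 counts in the shCtrl libraries and 16 and 4 in the shUSP9X libraries, with overlapping groups, and did not pass the filter on low counts. Unlike in the mu and pi classes, no 100-base stretch of Mgst1, Mgst2 or Mgst3 occurred in another gene's transcripts.

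**Figure D3:**
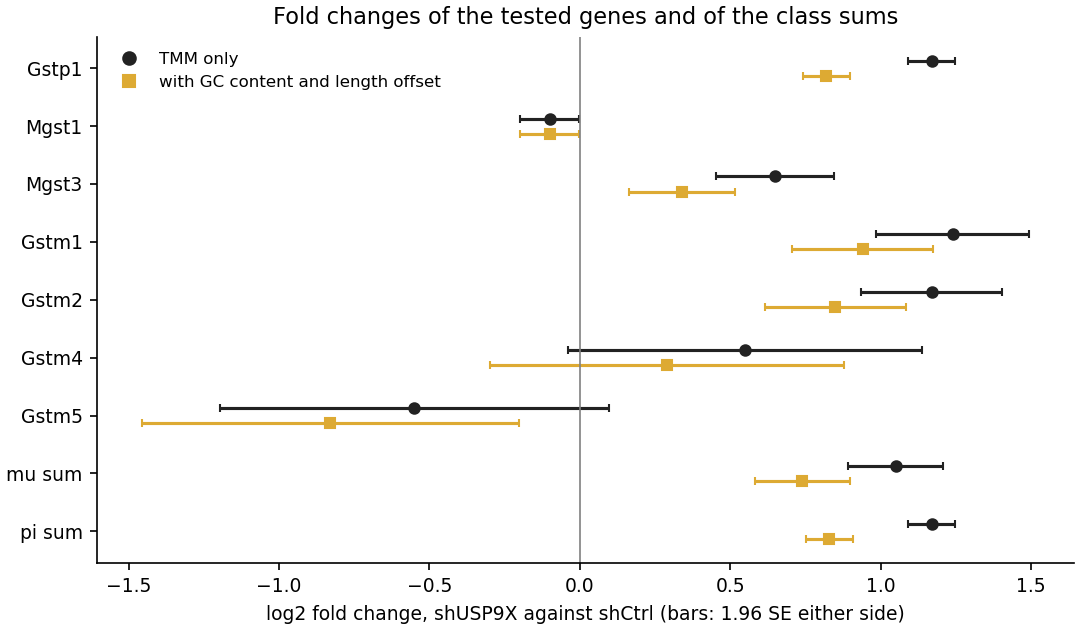
Log2 fold change of shUSP9X against shCtrl for the 7 genes tested and the summed mu and pi counts, with bars for the 95% interval, from TMM-scaled counts (black circles) and with an offset for GC content and transcript length (yellow squares). Gstp1, Gstm1, Gstm2, Mgst3 and both sums lie above 0 either way, with Gstp1 at 1.17 and 0.82 and Mgst3 at 0.65 and 0.34.

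Fold changes in these libraries followed GC content across genes. Spearman's rho with log2 fold change was 0.429 for GC content and -0.322 for transcript length, across genes that are not independent replicates. When the tested genes were divided into 10 equal bins by GC content, the median log2 fold change of the bin that holds the gene was 0.22 for Gstp1, 0.23 for Gstm1 and 0.13 for Gstm2 and Mgst3. With an offset that removes each library's trend, the log2 fold changes were 0.82 for Gstp1, 0.94 for Gstm1, 0.85 for Gstm2 and 0.34 for Mgst3, and the adjusted p of each remained under 0.05, the highest at 0.00285 for Mgst3. The median of all genes tested moved to 0.07 under that offset. Over 15 alternatives in all, each of these 4 genes stayed higher at an adjusted p under 0.05.

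Levels of different genes were compared per length, as the authors' FPKM, which scales fragments for transcript length and library size. In shCtrl, Gstp1 was the most abundant at 167 and 168 FPKM, followed by Mgst1 at 118 and 134, Mgst3 at 17.9 and 18.2, Gstm2 at 8.84 and 9.45 and Gstm1 at 8.78 and 7.06. Gstm5 at 2.46 and 2.64 FPKM and Gstm4 at 1.32 and 1.46 came next, and Mgst2, Gstm7 and Gstm6 stayed under 0.75. No neighbours from Gstp1 to Gstm4 overlapped in shCtrl, although Gstm2 and Gstm1 were separated by less than the spread of Gstm1. In shUSP9X, Gstp1 stood at 368 and 370 FPKM, Mgst1 at 118 and 118 and Mgst3 at 27.1 and 28.3. Gstm2 (19.7 and 20.7 FPKM) overlapped Gstm1 (19.8 and 17.4 FPKM) there, and Gstm4 (1.79 and 2.85 FPKM) overlapped Gstm5 (2.14 and 1.43 FPKM).

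The make-up of the transcripts differed between the groups. The 10 genes summed to 325 and 342 FPKM in shCtrl and to 558 and 559 FPKM in shUSP9X. Gstp1 held 51.3% and 49.2% of this sum in shCtrl and 65.9% and 66.1% in shUSP9X. The share of Mgst1 was 36.4% and 39.1% in shCtrl and 21.2% and 21.1% in shUSP9X. The 6 mu genes together held 6.61% and 6.15% against 7.78% and 7.63%. Shares of a sum depend on each other, so a lower share of Mgst1 is not a lower level.

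**Figure D4:**
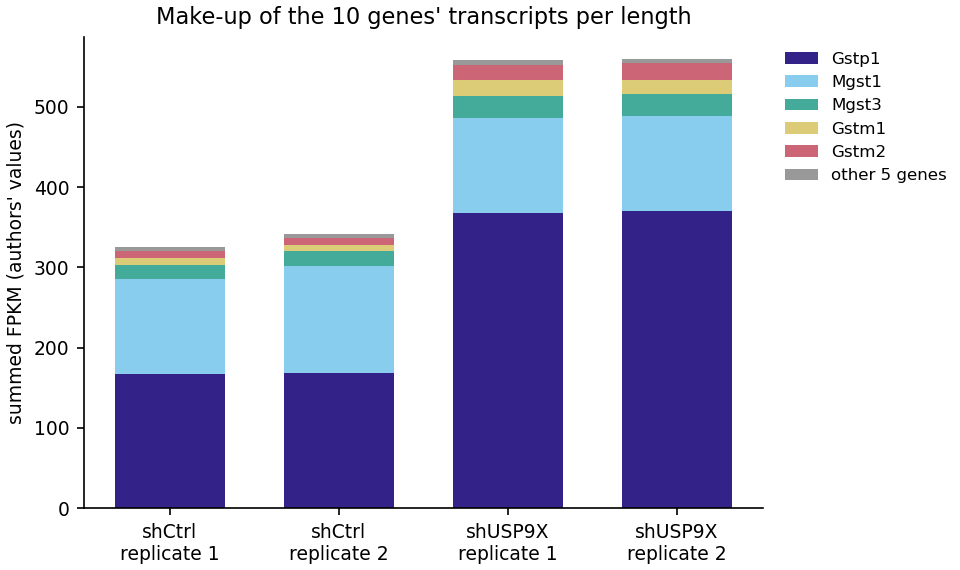
Stacked bars of the authors' FPKM for the 10 genes in each library, with Gstm4, Gstm5, Gstm6, Gstm7 and Mgst2 joined as the other 5 genes. The sum is 325 and 342 FPKM in shCtrl and 558 and 559 FPKM in shUSP9X, and Gstp1 makes up most of the added height.

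Promoter windows of the members differed in the short elements they held. The core of the antioxidant response element through which NRF2 acts, TGACNNNGC on either strand, occurred in 12.4% of all 32851 windows. Among the members it was found in the windows of Gstm5, of 1 of 2 starts of Mgst1 and of 1 of 2 starts of Gstm7. Gstm5 and Mgst1 were tested and not called, and Gstm7 was not tested. The Gstp1 window reads TGAGTCAGC, which has a G where this core has its fixed C. It was therefore not counted, and variants of the core were not searched. Neither this core nor TGAGTCA was in the windows of Gstm1, Gstm2, Gstm4, Gstm6 or Mgst3. Windows of 30 bases around the matches are printed with the match in capitals, as it reads on the gene's strand, to be set beside that of Gstp1.
Gstm5 at base -42: caccgcccacTGACCACGCggagggcgggt
Gstm5 at base -176: ctgtgcaacaTGACTCAcgcttcccgggta
Gstm7 at base -129: tctgaagaccTGACAAAGCgaagccaatcc
Mgst1 at base -56: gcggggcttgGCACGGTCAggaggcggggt
Mgst2 at base -52: ccaatcctgtTGACTCAactctgttgcctt
The second Gstm5 window and the Mgst2 window hold TGAGTCA read on the opposite strand, and the Mgst1 window holds the antioxidant core read on the opposite strand. The letters GCGTG of the xenobiotic response element, found in 32.4% of all windows, were in those of Gstm1, Gstm5, Gstp1 and Mgst3. A window without a match says only that these letters are not within it.

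Most of the other glutathione transferase and MAPEG genes that were tested were also called higher. Of 23 listed genes 22 were in the table, 14 were tested, 11 were higher and none was lower, with a median log2 fold change of 1.35. The share called higher was 78.6%, beside 33.8% higher and 33.6% lower of all genes tested. Of the 14, Gsta2, Gsta3, Gsta5 and Gstp2 passed the filter on low counts through the shUSP9X libraries alone, which favours a call higher. Of the other 10 genes 7 were higher and 0 lower, with a median of 0.95. The genes not called were Gstt3 (-0.45, adjusted p = 0.302), Ptges (-0.35, adjusted p = 0.349) and Gstcd (0.03, adjusted p = 0.736). These were named after their values were seen. Gsta1, of the alpha class, had 60.84 and 53.33 counts in the shCtrl libraries and 2043.01 and 1616.74 in the shUSP9X libraries, a log2 fold change of 4.86 (SE 0.10, adjusted p = 1.3e-23). Gsta3, of the same class, had 8 and 8 counts against 113 and 103, and Gsta2 had 6.1 and 12.67 against 92.34 and 80.35. With no filter beyond 1 count, their log2 fold changes were 3.61 (adjusted p = 2.0e-27) and 3.03 (adjusted p = 7.8e-18). The size was not stable at such levels, as it ran over the alternatives from 2.02 on log2(FPKM + 1) to 4.19 with the offset for GC content and length for Gsta3, and from 1.97 on log2(FPKM + 1) to 3.74 without shCtrl replicate 2 for Gsta2, which was at 2.51 without shCtrl replicate 1. Gsta4, which conjugates the lipid peroxidation product 4-hydroxynonenal, rose from 248 and 230 to 691 and 688 CPM, by 1.53 (SE 0.04, adjusted p = 6.4e-22). Of the omega class, which reduces dehydroascorbate, Gsto1 rose from 401 and 397 to 888 and 914 CPM (1.17) and Gsto2 rose by 1.98 on the log2 scale. Alpha-class genes are close copies too, and the estimated counts of Gsta1 and Gsta2 were not whole numbers.

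Genes that make and recycle glutathione were mixed. Of 29 listed genes 26 were tested, 15 were higher and 5 lower, with a median log2 fold change of 0.22. These calls were 57.7% and 19.2% of the 26, beside 33.8% and 33.6% of all genes tested. With the offset for GC content and length, 18 were higher and 4 lower, with a median of 0.40. Slc7a11, the cystine transporter that supplies glutathione synthesis, was named after its values were seen, as it was called lower (-0.40, adjusted p = 2.1e-04) and had a log2 fold change of 1.04 with that offset. Gclc, the catalytic subunit of the rate-limiting ligase of glutathione synthesis, rose from 79.2 and 71.3 to 141 and 145 CPM (0.93, adjusted p = 3.7e-14), and Gsr, which reduces oxidized glutathione, from 148 and 150 to 287 and 277 CPM (0.92). Pgd, a source of NADPH, rose by 1.16 and Esd, which completes glutathione-dependent removal of formaldehyde, by 1.35 on the log2 scale. Chac1, which degrades glutathione, fell from 43.5 and 50.7 to 12.4 and 10.1 CPM (-2.06, adjusted p = 4.4e-15), and Oplah, which recycles oxoproline, fell as well (-1.25). Me1, the most abundant of the list, was at 724 and 746 CPM in shCtrl and 757 and 753 CPM in shUSP9X. It was not called as reported (0.04, adjusted p = 0.306). With the offset for GC content and length it was called higher (0.17, adjusted p = 7.7e-05).

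Genes for export of conjugates and for their processing to mercapturates were called in both directions. Of 21 listed genes 13 were tested, 7 were higher and 3 lower, with a median of 0.28. These calls were 53.8% and 23.1% of the 13, beside 33.8% and 33.6% of all genes tested. Whether the list differs from all genes was not tested. Ggt1 and Abcc3 passed the filter on low counts through the shUSP9X libraries alone, and of the other 11 genes 5 were higher and 3 lower, with a median of 0.21. Ggt1, which removes the glutamyl group of conjugates, had 2 and 8 counts in shCtrl against 34 and 44 in shUSP9X. With no filter beyond 1 count its log2 fold change was 2.81 (adjusted p = 2.0e-06), and it was 2.08 without shCtrl replicate 1 and 4.15 without shCtrl replicate 2. The transporters Abcc4 (0.74) and Abcc1 (0.28) rose, and the aminoacylases Acy3 (0.63) and Acy1 (0.49) rose too. The transporter Abcc3, with 8 and 10 counts against 34 and 25, had a log2 fold change of 1.56 with no filter beyond 1 count (adjusted p = 0.00975), and its call was lost without shCtrl replicate 1 (1.34, adjusted p = 0.0608) and without shUSP9X replicate 1 (1.44, adjusted p = 0.0865). Those of Acy3 (0.35, adjusted p = 0.106) and Acy1 (0.24, adjusted p = 0.095) were lost with the offset for GC content and length. Abcc5 fell from 174 and 173 to 138 and 143 CPM (-0.30, adjusted p = 1.9e-06). Abcg2, a drug efflux pump, fell from 123 and 119 to 90.9 and 94.1 CPM (-0.39, adjusted p = 2.0e-07), but had a log2 fold change of 0.72 with the offset for GC content and length.

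Among NRF2 regulators and targets, 22 of 23 listed genes were tested, 20 were higher and 1 lower, with a median log2 fold change of 0.65. The shares were 90.9% higher and 4.55% lower, beside 33.8% and 33.6% of all genes tested. Nqo1, a quinone reductase and standard NRF2 target, rose from 25.6 and 26.7 to 163 and 156 CPM (2.61, SE 0.06, adjusted p = 9.5e-23). Aldh3a1 (2.38), Cbr3 (1.78) and Blvrb (1.58) rose too, as did the ferritin subunits Fth1 (1.20) and Ftl1 (1.10), of which Ftl1 was the most abundant at 1918 and 1952 CPM in shCtrl and 4161 and 4153 CPM in shUSP9X. Transcripts of both regulators rose too. Nfe2l2, which encodes NRF2, went from 356 and 360 to 437 and 440 CPM (0.29, adjusted p = 6.1e-08), and Keap1 from 59.2 and 58.6 to 91.9 and 91.4 CPM (0.64, adjusted p = 1.9e-10). Mafg, a dimerization partner of NRF2, was the gene called lower (-0.15, adjusted p = 0.039), and it was named after its value was seen. No gene of the list was called lower with DESeq2, with upper quartile scaling, on either log2 FPKM scale, without shCtrl replicate 2 or without shUSP9X replicate 1. RNA levels do not measure the NRF2 protein. Without shUSP9X replicate 2, the genes called higher and lower were 10 and 0 of the other transferases, 12 and 6 of glutathione synthesis and cycling, 7 and 3 of export and mercapturate formation, and 19 and 1 of the NRF2 list.

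**Figure D5:**
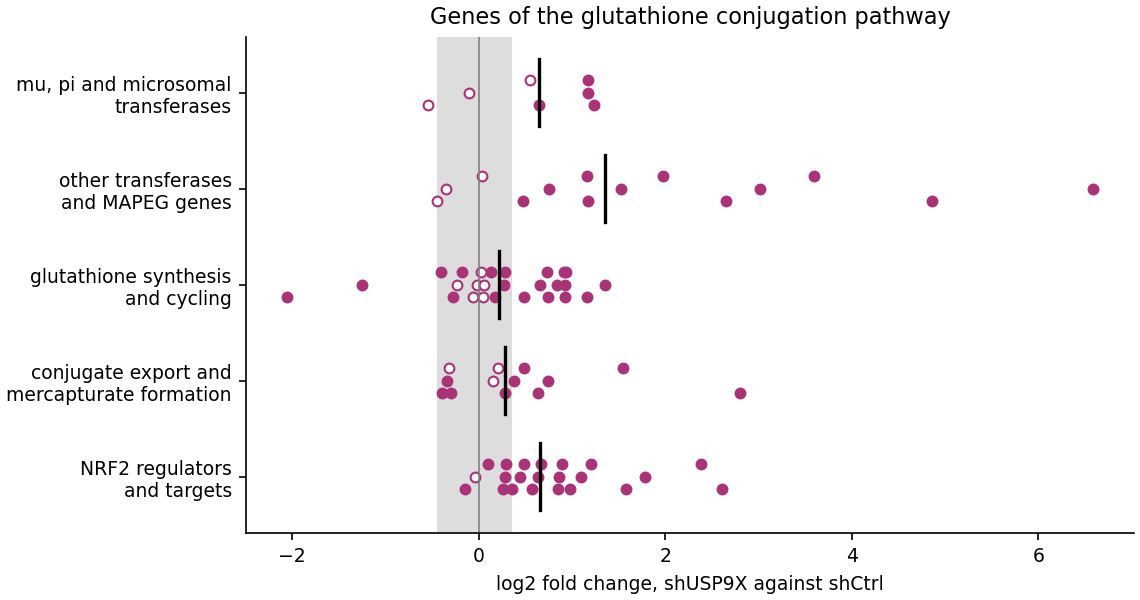
Log2 fold change of each tested gene in 5 lists (points, filled where the adjusted p is under 0.05), with the list's median as a black bar and the middle 50% of all 11448 genes tested, -0.44 to 0.34, in grey. The medians are 0.65, 1.35, 0.22, 0.28 and 0.65 from top to bottom, and the rightmost point of the other transferases is Gsta5, listed at 0 in both shCtrl libraries.

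The genes whose 4 values were most like those of a member were found by the distance between log2 CPM values over the 4 libraries, each gene less its own mean. Of 7796 genes with a mean log2 CPM of at least 4, Gsto1 was the closest to Gstp1 (distance 0.031 on the log2 scale), followed by Plaur (0.033), the urokinase receptor, and Atp9a (0.034). Gar1 (0.074), D630045J12Rik (0.194) and Ogfr (0.212) were closest to Gstm1, out of 7797 genes. Closest to Mgst1 were Lpin2 (0.012), Ttc13 (0.013) and Perp (0.014). With 4 libraries in 2 groups, a small distance mostly reflects a difference between the groups of like size.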

How the data were processed

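Polyadenylated RNA of 4 ID8 libraries, 2 shCtrl and 2 shUSP9X, was grouped by the labels. The authors deposited 1 table with an estimated count (not normalized) and an FPKM (scaled for length and library size) per gene and library. Per the labels, their processing notes name fastp 0.18.0, Bowtie2 2.2.8, HISAT2, StringTie 1.3.1 and RSEM, without roles. The study's methods give GRCm38. Annotation release, read length and strand are not given in the sources used here. The test had been planned for whole counts, so the estimated counts, of which 6.395% to 6.69% per library were not whole, were rounded.

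Genes passing filterByExpr (11448 of 22063) were scaled by TMM and tested with edgeR 4.0.16 (R 4.3.3), without a replicate block, at a common coefficient of variation of 0.0352. Replicates were not the same library deposited again, as the chi-square of their counts averaged 3.36 (shCtrl) and 2.09 (shUSP9X) per gene. Totals of 15611363 to 19978889 counts put the floor of 3 counts at 0.15 to 0.192 CPM, which covers counting error only. On simulated counts for this comparison, 100% of 200 genes changed 2-fold were recovered with 9 false calls among 11336 genes. The 200 genes were drawn from the more abundant ones, so this recovery does not cover genes as low as Gstm4 and Gstm5. Far fewer genes changed in the simulation than were called in the data. Alternatives used DESeq2 1.42.0, limma 3.58.1 on log2 FPKM, other scalings and filters, an offset for GC content and length, and leaving out each library. With 2 libraries a group, no permutation test can reach 0.05.

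The genes and lists were chosen with earlier results of these data known. Named genes are the 10 transferases, Usp9x, Nfe2l2, Keap1, the 3 genes most like Gstm1, Gstp1 and Mgst1, and per list up to 6 called genes with the largest change at a mean of at least 1 CPM plus the 2 most abundant. The lists were other glutathione transferase and MAPEG genes, glutathione synthesis and cycling, conjugate export and mercapturate formation, NRF2 regulators and targets, and markers of epithelium and mesothelium, leukocytes, endothelium, fibroblasts and hepatocytes. Marker lists are given whole, except 1 gene that is not reported here. Coordinates, transcripts and GC content came from GENCODE M21, in which 21973 genes were matched, and promoters from RefSeq. Protein sequences were not used here.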

Additional observations from a re-analysis of the deposited data

Results flagged for a closer look

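Alb was outside the genes tested and had 635 counts in shUSP9X replicate 2, against 0 in both shCtrl libraries and in shUSP9X replicate 1. It was singled out as a signal above the control libraries in a gene that no reported comparison uses. With no filter beyond 1 count it enters the test, on the counts of that 1 library.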

How the results depend on the processing

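The 4 genes called higher were Gstp1, Gstm1, Gstm2 and Mgst3, and each kept its direction and its side of the threshold under all 15 alternatives. Their number ranged from 4 to 5 with a library left out, the fifth being Gstm4. No transferase was called lower by the test as reported, but 1 was with scaling by library size only (Mgst1), 1 with the GC content and length offset (Gstm5) and 1 with that offset and the replicate block (Gstm5), and the number ranged from 0 to 1 with a library left out. Over all genes, 3864 were higher and 3843 lower, and at an unadjusted p under 0.05 with a fold change above 1.5 these were 1233 and 2143. With a library left out, the genes higher ranged from 3423 to 3869 and the genes lower from 3318 to 3652. With the GC content and length offset the sign changed for Abcg2, at 0.72 without and 0.72 with the replicate block, for Lpin2, at 0.01 and 0.01, and for the markers Dcn (0.75), Krt19 (-0.15), Upk3b (-0.10) and Pecam1 (-0.07), against -0.39, -0.11, -0.46, 0.12, 0.05 and 0.04 as reported. In the pathway lists it also changed for Slc7a11 (-0.40 to 1.04), Chac2 (-0.23 to 0.69), Gpx8 (-0.06 to 0.02), Hagh (0.27 to -0.05), Txn1 (0.10 to -0.05) and Ugdh (-0.04 to 0.69). Pecam1, which was not called, ranged from -0.45 to 0.74 over its alternatives. Usp9x was -2.19 with this offset, in place of -3.85. Of the other transferases, 11 were higher as reported and 7 with at least 10 counts asked of every library, where fewer genes are tested, and of the NRF2 list 1 and 0 genes were lower as reported and with DESeq2. The cause was not tested.

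Deviations of same-numbered libraries correlated at -0.0453, so no effect shared by replicate number was seen. This value cannot show whether the libraries were prepared or cultured in pairs. With the replicate block, 3855 genes were higher and 3810 lower, 4 transferases were higher and 0 lower, and log2 fold changes were -3.85 for Usp9x, 1.05 for the mu sum and 1.17 for the pi sum. Gstm6, Gstm7 and Mgst2 were too shallow for the filter as reported. With no filter beyond 1 count their adjusted p was 0.499, 0.962 and 0.69, and over the 4 alternatives that tested Mgst2 its log2 fold change ran from 0.28 to 1.04 (adjusted p 0.322 to 0.798).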

Other observations

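Genes with at least 20 counts in 1 library and at least 10 times as many there as in every other were counted after the values had been seen. There were 18 in shUSP9X replicate 2, 3 in shCtrl replicate 2, 1 in shCtrl replicate 1 and 0 in shUSP9X replicate 1. The 18 summed to 1332 counts, or 0.00783% of that library. Beside Alb (635 counts), they included the serum protease inhibitor genes Serpina3k (93) and Serpina1e (88.29), the fetuin gene Ahsg (49 against 3, 1 and 2), the major urinary protein gene Mup3 (35) and the fibrinogen genes Fgb (34), Fga (32) and Fgg (22), all products of liver. In shCtrl replicate 2 the melanin synthesis genes Tyrp1 (113) and Dct (31) were among the 3, and both had 0 counts in every other library.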
